A study of Mus musculus with 4 samples.

Results

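The mitochondrial carrier genes of the Slc25a family were followed in mouse bone marrow macrophages grown for 7 days with either of a pair of growth factors. Members were all genes whose probe sets carried a single platform symbol beginning Slc25a, with the probe set of highest mean over the 4 arrays standing for each gene. There were 46 of them among 19938 genes. The marrow came from C57BL/6J mice. Cells called M1 by the submitters grew in GM-CSF (granulocyte-macrophage colony-stimulating factor) and were sorted for CD45, MHC class II and F4/80 without CD8a, while cells called M2 grew in M-CSF (macrophage colony-stimulating factor), given as 20% medium conditioned by L929 fibroblasts, and were sorted for CD45, F4/80 and CD11b. RNA was read on 1-colour Affymetrix arrays, with 2 arrays in each group. No mutation, transgene or further treatment is named in the labels, which also do not say whether the arrays of a group came from separate cultures or animals, so each p-value reflects array-to-array spread alone, which may be technical. Growth factor, conditioned medium and sort gate differed together between the groups and cannot be told apart.

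Slc25a proteins sit mostly in the inner mitochondrial membrane, where each moves a small molecule that the membrane otherwise holds back, such as ADP and ATP, phosphate, citrate, malate, amino acids, iron or a cofactor. They thereby join the citric acid cycle, oxidative phosphorylation, haem synthesis and mitochondrial nucleic acid synthesis to the cytosol. In macrophages the family is best known for citrate export by Slc25a1, which feeds acetyl-CoA production, and for the dicarboxylates malate and succinate, whose handling changes on activation.

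Upstream sequence is shown for the members with the largest differences toward the M-CSF cells, Slc25a36 and Slc25a10. Of those shown, Slc25a36 alone passed the threshold given below. No upstream window was at hand for Slc25a37 or Slc25a35, the members called higher in GM-CSF cells. The bases run 5′ to 3′ and end just before the RefSeq transcription start (GRCm38.p6; the expression values themselves name no genome build). The Slc25a36 stretch is chr9:97111042-97111291 on the minus strand and that of Slc25a10 is chr11:120491587-120491836 on the plus strand. Capitals mark matches, on either strand, to 5 motifs chosen after the sequences had been seen, namely the cyclic AMP response element TGACGTCA, the E-box CACGTG, the CCAAT box, the GC box GGGCGG and the STAT motif TTCNNNGAA.
Slc25a36: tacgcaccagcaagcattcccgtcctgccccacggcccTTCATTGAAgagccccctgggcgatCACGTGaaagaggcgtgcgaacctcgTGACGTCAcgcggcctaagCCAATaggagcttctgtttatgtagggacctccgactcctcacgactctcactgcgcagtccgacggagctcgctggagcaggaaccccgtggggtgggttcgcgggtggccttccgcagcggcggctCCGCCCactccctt
Slc25a10: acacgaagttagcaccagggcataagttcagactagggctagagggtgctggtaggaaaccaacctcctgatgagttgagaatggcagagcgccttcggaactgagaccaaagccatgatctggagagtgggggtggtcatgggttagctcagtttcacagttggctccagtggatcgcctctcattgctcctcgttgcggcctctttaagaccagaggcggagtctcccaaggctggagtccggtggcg
The Slc25a36 window held 1 match to each motif, with the cyclic AMP response element 161 to 154 bases before the start, and these matches did not overlap. The Slc25a10 window held none of these letters. Over the 32851 windows of 250 bases in the RefSeq table, 1.55% held the cyclic AMP response element, 6.02% the E-box, 33.8% CCAAT, 32.7% the GC box and 7.02% the STAT motif. RefSeq windows were found for 36 of the 46 members. Of these 46 windows 2 (4.35%) held the cyclic AMP response element, 8 (17.4%) the E-box, 21 (45.7%) CCAAT, 32 (69.6%) the GC box and 2 (4.35%) the STAT motif, and some windows belong to the same gene. Besides Slc25a36 the cyclic AMP response element was found in Slc25a25 alone and the STAT motif in Slc25a54 alone. A match describes the letters only, and no test was made of these shares.

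Slc25a37, which encodes the iron importer mitoferrin-1, and Slc25a35, a carrier of little known substrate, were higher in GM-CSF cells, and Slc25a36, a pyrimidine nucleotide carrier, was lower. Levels and differences are given on the log2 scale of the deposited values, differences are GM-CSF M1 minus M-CSF M2, and a call means a Benjamini-Hochberg adjusted p under 0.05 over all genes tested with limma. Of the 46 members, 42 passed a filter on low values. Of these, 2 (where 6.18% of all 14995 genes tested were called higher) and 1 (where 4.53% were called lower) were called, and 39 were not, so 7.14% of the members tested were called, beside 10.7% of all genes. At least 0.5 apart were 4 members, or 9.52%, against 14.0% of all genes. Both GM-CSF arrays lay above both M-CSF arrays for 11 members (26.3% of all genes) and below for 12 (29.2%). The median difference was -0.05 over the members and -0.01 over all genes, and the median size of the difference 0.16 and 0.15. The 95% interval of the difference, taken from limma and not adjusted over genes, lay between -0.5 and 0.5 for 25 of the 42 members and between -1 and 1 for 40.

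**Figure D1:**
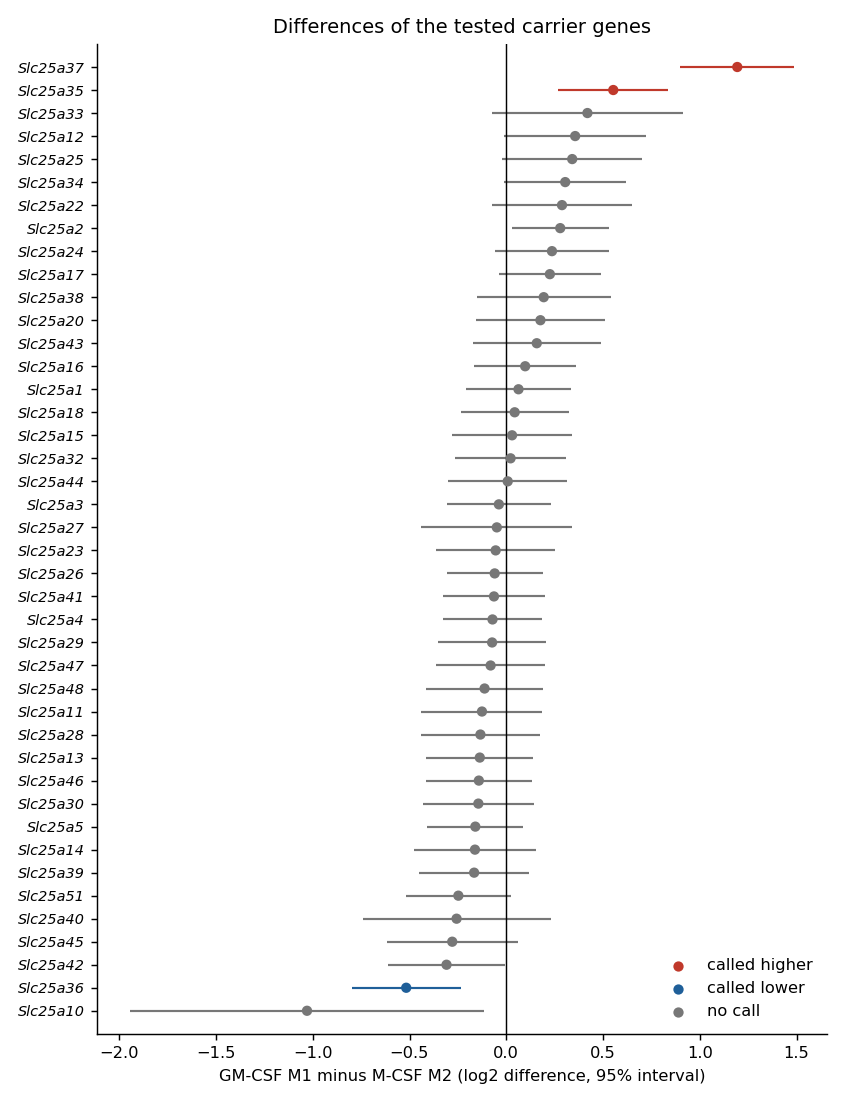
The log2 difference between the groups is plotted on the horizontal axis for each of the 42 members tested, with its 95% interval from limma (2 arrays per group) as a line. Slc25a37 lies alone at the high end with 1.19, Slc25a10 at the low end has the widest interval, from -1.94 to -0.12, and most members lie around 0.

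The calls depended on the arrays kept. Without M-CSF replicate 1 or without M-CSF replicate 2, 0 members were called in either direction, although 196 and 168 genes were then still called higher and 65 and 65 lower over the whole table. Leaving out GM-CSF replicate 1 gave 6 members higher and 2 lower, and leaving out its replicate 2 gave 2 and 3. The fits that leave out a GM-CSF array take their spread from the M-CSF pair, which lay closer together by the median. This held for the called members Slc25a37 and Slc25a35, but not for Slc25a36, with distances of 0.04 for GM-CSF and 0.19 for M-CSF. The median distance between the arrays of a pair was 0.17 for GM-CSF and 0.11 for M-CSF over the members tested, against 0.14 and 0.11 over all genes tested.

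Of the iron carriers, Slc25a37 was called and Slc25a28 was not; the difference between these results was not tested. Mitoferrin-1 and mitoferrin-2 bring iron to the matrix for haem and iron-sulfur clusters, the former mainly known from red cell precursors and the latter from other tissues. Slc25a37 (mitoferrin-1) read 10.00 and 10.22 in the GM-CSF arrays and 8.96 and 8.88 in the M-CSF arrays. Both GM-CSF arrays were thus more than 1 unit above both M-CSF arrays, and the gap between groups exceeded the gap within either pair. The difference was 1.19 ± 0.12 (SE, n = 2 per group), or 2.29-fold, with an adjusted p of 0.00268 from limma. Leaving out a GM-CSF array gave 1.30 (replicate 1) or 1.08 (replicate 2), with the call kept. Leaving out an M-CSF array gave 1.23 (replicate 1) or 1.16 (replicate 2), and the call was lost (limma adjusted p = 0.0652 and 0.0769). Slc25a28 (mitoferrin-2) read 7.91 and 8.13 in GM-CSF cells against 8.23 and 8.08 in M-CSF cells. Its groups overlapped, with a difference of -0.13 and a 95% interval from -0.44 to 0.17.

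**Figure D2:**
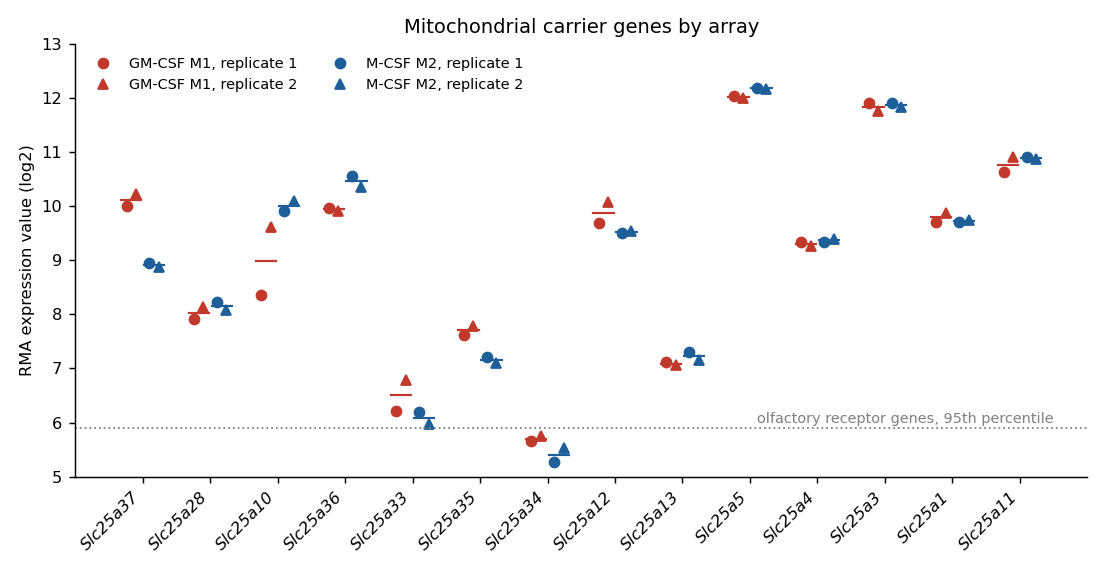
Each point is the deposited log2 value of a gene on 1 array, red for GM-CSF M1 and blue for M-CSF M2, with short lines at the group means and a dotted line at the level below which 95% of olfactory receptor genes lay. Slc25a37 stands more than 1 unit higher on both GM-CSF arrays, Slc25a10 is low mainly on GM-CSF replicate 1, and Slc25a3, Slc25a4 and Slc25a5 differ by at most 0.16 between the groups in size.

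Because mitoferrin-1 is abundant in red cell precursors, markers of that lineage are given beside it. Of 10 erythroid markers listed, 5 were on the array under a single symbol, and 0 of the 4 tested were called. Their summed level was 8.06 and 8.17 in GM-CSF cells and 8.08 in both M-CSF arrays (log2 of the sum of linear values). Alas2, the erythroid form of the first haem enzyme, had means of 5.65 and 5.60, below 5.90, the 95th percentile of olfactory receptor genes averaged over the arrays, taken as a rough background. The globin genes of that list were not analysed here. The summed levels of the erythroid list overlapped between the groups. Of its single genes, Slc4a1 lay higher on both GM-CSF arrays, with 6.25 and 6.38 against 6.19 and 6.17. Klf1, which did not pass the filter, lay lower, with 5.12 and 5.18 against 5.32 and 5.23. Gata1 and Klf1, like Alas2, had group means below that background. The dendritic cell list had 4 of 10 markers called higher and 0 lower, beside 6.18% and 4.53% of all 14995 genes tested. Its median difference was 0.11. Its summed level was 12.12 and 11.27 in GM-CSF cells and 9.38 on each M-CSF array. In GM-CSF cells Itgax and Cd24a were the brightest genes in that sum. The part of these markers in the Slc25a37 result was not tested. In bulk RNA, fewer cells of a type and less RNA per cell cannot be told apart.

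Among carriers of nucleotides and cofactors, 1 of 10 was called (10.0%, beside 10.7% of all genes tested). Slc25a36 and Slc25a33 carry pyrimidine nucleotides into mitochondria for RNA and DNA synthesis there. Slc25a36 read 9.96 and 9.92 in GM-CSF cells against 10.55 and 10.36 in M-CSF cells. All GM-CSF values lay below all M-CSF values, by -0.52 ± 0.12 (SE, n = 2 per group, 1.43-fold, limma adjusted p = 0.0412). A further probe set of the gene read 9.48 and 9.49 against 9.98 and 9.79, a difference of -0.40, and with the mean of both probe sets the call was lost (-0.46, limma adjusted p = 0.0579). It was also lost with no filter on low values (0.0589) and without M-CSF replicates 1 and 2 (0.307 and 0.173). Slc25a33 differed in the opposite direction without a call, with 6.22 and 6.79 in GM-CSF cells against 6.20 and 5.97 in M-CSF cells. The groups differed by 0.42 ± 0.20. Leaving out GM-CSF replicate 2 gave 0.13, and leaving out GM-CSF replicate 1 gave 0.70 and a call (limma adjusted p = 0.00251).

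The other cofactor carriers did not pass. Slc25a42, which carries coenzyme A, had means of 6.57 and 6.88 in GM-CSF and M-CSF cells, with a difference of -0.31 ± 0.13 (limma adjusted p = 0.19). Slc25a51, the NAD carrier, read 8.81 and 8.82 in GM-CSF cells against 9.14 and 8.98, and Slc25a39, which supplies mitochondrial glutathione, read 9.66 and 9.87 against 9.93 and 9.93. Both had GM-CSF arrays below M-CSF arrays, by -0.25 and -0.17. Slc25a40, the closest relative of Slc25a39, read 7.68 and 7.12 against 7.77 and 7.54, so its groups overlapped. It differed by -0.54 without GM-CSF replicate 1, where it was called (limma adjusted p = 0.0161), and by 0.02 without GM-CSF replicate 2. Slc25a17, a carrier of the peroxisome membrane, differed by 0.23 (95% interval -0.04 to 0.49) with its GM-CSF arrays above the M-CSF arrays. Slc25a16 (0.10), the folate carrier Slc25a32 (0.02) and the S-adenosylmethionine carrier Slc25a26 (-0.06) had intervals within -0.31 and 0.36.

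Carriers of di- and tricarboxylates and of acylcarnitine held the most uneven member. Slc25a10 exchanges malate and succinate for phosphate. It read 8.35 and 9.61 in GM-CSF cells against 9.92 and 10.10 in M-CSF cells. Both GM-CSF arrays were below both M-CSF arrays, but replicate 1 was 1.26 lower than replicate 2, and this gap within the GM-CSF pair was larger than the whole difference of -1.03 ± 0.38 (SE, n = 2 per group, limma adjusted p = 0.151). Without GM-CSF replicate 2 the difference was -1.66 and was called (limma adjusted p = 2.74e-07), and without GM-CSF replicate 1 it was -0.40 and was not (0.0639).

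The other carboxylate carriers overlapped between the groups. Slc25a1, the citrate carrier, read 9.71 and 9.88 in GM-CSF cells against 9.72 and 9.75 in M-CSF cells, a difference of 0.06 with a 95% interval from -0.21 to 0.34. Slc25a11, which exchanges oxoglutarate for malate, read 10.63 and 10.90 against 10.91 and 10.87. Its difference was -0.13, with an interval from -0.44 to 0.19. Slc25a20, the carnitine and acylcarnitine carrier of fatty acid oxidation, differed by 0.18 (interval -0.16 to 0.51). None of these 3 intervals reached a 1.5-fold change in either direction.

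Of the amino acid carriers, 0 of 9 were called (1 had an unadjusted limma p under 0.05, beside 3821 of all 14995 genes tested). Slc25a12 and Slc25a13 export aspartate in exchange for glutamate as part of the malate-aspartate shuttle. Slc25a12 read 9.69 and 10.08 in GM-CSF cells against 9.51 and 9.54 in M-CSF cells, so the groups were apart, with a difference of 0.36 ± 0.15 (limma adjusted p = 0.21). The difference was 0.55 without GM-CSF replicate 1, where it was called (limma adjusted p = 0.00879), and 0.16 without GM-CSF replicate 2. Slc25a13 read 7.13 and 7.06 against 7.31 and 7.15, with its GM-CSF arrays on the lower side and a difference of -0.14. Slc25a22, a glutamate carrier, read 7.27 and 7.65 against 7.18 and 7.17 and differed by 0.29, with 0.48 and a call without GM-CSF replicate 1 (limma adjusted p = 0.0213) and 0.10 without GM-CSF replicate 2. For Slc25a12, Slc25a22 and Slc25a33 alike, GM-CSF replicate 2 was the higher array of its pair. The same held for many other members, among them Slc25a37, Slc25a35 and Slc25a10, but not for Slc25a36 or Slc25a40.

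Slc25a38 carries glycine for the first step of haem synthesis. It read 7.97 and 8.26 in GM-CSF cells against 8.02 and 7.82 in M-CSF cells, a difference of 0.19 with overlapping groups. The ornithine carrier Slc25a15 (0.03), the basic amino acid carrier Slc25a29 (-0.07) and the branched-chain amino acid carrier Slc25a44 (0.01) differed by less than their standard errors of 0.13, 0.12 and 0.13. Slc25a2, a further ornithine carrier, differed by 0.28 from means of 5.41 and 5.13, and Slc25a18, a further glutamate carrier, by 0.04, and both lay within the background range. Slc25a2 passed the filter only through its GM-CSF arrays, where it was higher. It was the 1 amino acid carrier with an unadjusted limma p under 0.05 (0.034), which is therefore no support for a difference.

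Of the carriers that serve ATP synthesis 0 of 7 tested were called (0 had an unadjusted limma p under 0.05, beside 3821 of all 14995 genes tested). Slc25a4 and Slc25a5 exchange ADP for ATP, and Slc25a3 imports phosphate. Slc25a5 read 12.03 and 12.00 in GM-CSF cells against 12.18 and 12.17 in M-CSF cells, and its 95% interval ran from -0.41 to 0.09. Its other probe sets differed by -0.16 and -0.15, against -0.16 for the one used; processed copies of this gene may share its probes. Slc25a3 read 11.91 and 11.77 against 11.91 and 11.84 (interval -0.31 to 0.23), and Slc25a4 read 9.33 and 9.27 against 9.34 and 9.40 (interval -0.33 to 0.18). The groups thus lay apart for Slc25a4 and Slc25a5, by -0.07 and -0.16 on the log2 scale, and overlapped for Slc25a3.

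Carriers of ATP-Mg and phosphate, which set the size of the matrix adenine nucleotide pool, were not called. Slc25a25 read 6.67 and 7.02 in GM-CSF cells against 6.57 and 6.43 in M-CSF cells, a difference of 0.34 ± 0.15 (limma adjusted p = 0.221) that was 0.52 and called without GM-CSF replicate 1 (0.016). Slc25a24 read 9.17 and 9.06 against 8.98 and 8.78, a difference of 0.24. Both had the GM-CSF arrays above the M-CSF arrays, whereas Slc25a23 (-0.05) and Slc25a41 (-0.06) overlapped between groups. Slc25a41, with means of 5.76 and 5.82, lay within the background range.

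**Figure D3:**
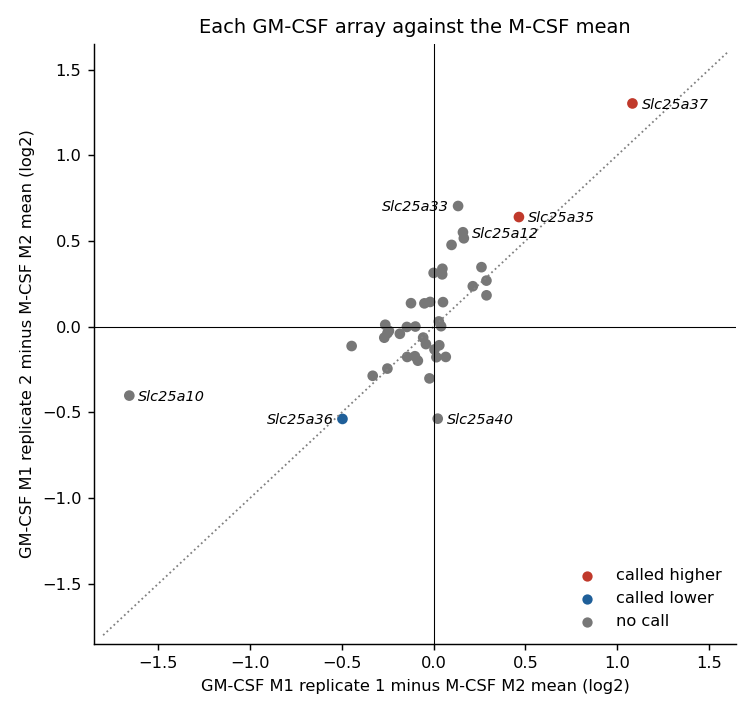
Each point is 1 of the 42 members tested, placed by its log2 value on GM-CSF M1 replicate 1 (horizontal) and replicate 2 (vertical) minus the mean of the M-CSF M2 arrays; on the dotted line both replicates give the same difference. Slc25a37, Slc25a35 and Slc25a36 lie near the line, Slc25a10 (-1.66 and -0.40) lies far from it, and Slc25a33 and Slc25a40 differ from the M-CSF mean mainly on replicate 2.

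Among the uncoupling protein relatives and the carriers of little known substrate, Slc25a35 was called. It read 7.62 and 7.79 in GM-CSF cells against 7.20 and 7.10 in M-CSF cells. The groups were apart, with a difference of 0.55 ± 0.12 (SE, n = 2 per group, 1.47-fold, limma adjusted p = 0.0349), and the call was lost without M-CSF replicates 1 and 2 (0.213 and 0.270). Slc25a34, its closest relative, read 5.66 and 5.75 against 5.26 and 5.53, a difference of 0.30 ± 0.13 (limma adjusted p = 0.211) at levels within the background range. Slc25a45 read 9.05 and 9.38 against 9.50 and 9.48, a difference of -0.28, and was called without GM-CSF replicate 2 (-0.45, limma adjusted p = 0.0268). Slc25a46, which acts in the outer membrane on mitochondrial shape, differed by -0.14 and Slc25a43 by 0.16. Slc25a47 (-0.08) and Slc25a48 (-0.11) overlapped between groups, and Slc25a48, with means of 5.31 and 5.42, lay within the background range.

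The uncoupling protein relatives Slc25a30 (-0.14), Slc25a14 (-0.16) and Slc25a27 (-0.05) were not called. Slc25a30 read 8.36 and 8.57 in GM-CSF cells against 8.62 and 8.60, so its groups were just apart. Slc25a14 and Slc25a27 overlapped and lay near the background range. The 4 members that did not pass the filter were Slc25a21, Slc25a31, Slc25a53 and Slc25a54, whose group means ran from 3.85 to 5.22, within the background range. Slc25a31 encodes an adenine nucleotide carrier of germ cells and Slc25a21 the oxodicarboxylate carrier. No difference could be read for these 4 at such signal.

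The partner genes of the carriers, drawn up as 9 lists by substrate and listing 193 genes, are given next. Of 177 measured under a single symbol, 174 were tested, 12 were called higher and 5 lower (9.77% called, against 10.7% of all genes), with a median difference of -0.03. Leaving out an M-CSF array left 5 higher and 0 lower (replicate 1) or 4 and 0 (replicate 2). Leaving out a GM-CSF array gave 20 and 16 (replicate 2) or 16 and 10 (replicate 1). Arg1, Arg2, Alas1 and Ak4 were called in all 4 of these fits. Sfxn3 lost its call without M-CSF replicate 2, and the other 12 lost theirs without either M-CSF array (limma adjusted p from 0.0614 to 0.313).

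The haem and iron-sulfur list, the partners of mitoferrin, had 2 of 19 members higher, 1 lower and 16 without a call. The share called was 15.8%, beside 10.7% of all genes tested. Alas1, the housekeeping form of the first haem enzyme, read 11.82 and 11.81 in GM-CSF cells against 9.70 and 9.66 in M-CSF cells. The difference of 2.13 ± 0.10 (4.39-fold, limma adjusted p = 0.000242) was far larger than the gap within either pair. Hmox1, which breaks haem down, was 1.68-fold higher (0.75 ± 0.11). Tfrc, the transferrin receptor that brings iron into the cell, was lower, with 7.72 and 7.65 against 8.80 and 8.60 (-1.02 ± 0.12, limma adjusted p = 0.00443). Later enzymes of haem synthesis did not pass, with Fech, which inserts the iron, 1.19-fold apart (limma adjusted p = 0.273) and Cpox 1.07-fold. The median of the list was 0.05.

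Of the ornithine and arginine partners of Slc25a15, 3 were called. Arg1 and Arg2, the arginases that make ornithine, were 11.7-fold and 6.30-fold higher in GM-CSF cells (3.55 ± 0.19 and 2.66 ± 0.23). On the M-CSF arrays Arg1 read 5.35 and 5.43, within the background range, so the size of its fold depends on that floor. Srm, spermidine synthase, was lower (-0.58 ± 0.13). Of the 8 tested, 2 were higher, 1 lower and 5 not called (37.5% called, beside 10.7% of all genes tested). The list's median was 0.01.

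In the citric acid cycle list 2 of 28 genes were higher, 0 lower and 26 without a call, with a median of 0.00. The share called was 7.14%, beside 10.7% of all genes tested. Acod1, which turns a cycle intermediate into itaconate, read 12.65 and 12.97 in GM-CSF cells against 11.68 and 11.59 in M-CSF cells (1.18 ± 0.14, 2.27-fold, limma adjusted p = 0.00458). Idh1, the cytosolic isocitrate dehydrogenase that uses exported citrate carbon, was 1.67-fold higher (0.74 ± 0.13). Acly, which splits the citrate that Slc25a1 exports, did not pass (1.25-fold, limma adjusted p = 0.132). The malate-aspartate list had 0 of 8 called (1 with an unadjusted limma p under 0.05, beside 3821 of all 14995 genes tested) and a median of 0.04. Its largest difference was that of Mdh1, cytosolic malate dehydrogenase, at -0.37 ± 0.12 (limma adjusted p = 0.11).

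Among other mitochondrial carriers and channels 1 of 19 was higher, 1 lower and 17 without a call (median -0.02). The share called was 10.5%, beside 10.7% of all genes tested. The list also held the uncoupling proteins, whose symbols fall outside the rule for members. Ucp1 and Ucp3 were not called, and Ucp2 had no value here under a single symbol. Sfxn3 and Sfxn4 belong to the sideroflexins, a separate carrier family. Sfxn3 was 2.34-fold higher (9.73 and 9.67 against 8.57 and 8.38) and Sfxn4 1.70-fold lower (5.40 and 5.01 against 6.06 and 5.87), the latter near the background range. The adenine nucleotide list had 2 of 23 higher (8.7%, beside 10.7% of all genes called in either direction), 0 lower and 21 without a call. They were Ak4, a matrix adenylate kinase (8.29 and 8.16 against 6.79 and 6.46, 3.03-fold), and Tspo, an outer membrane protein of porphyrin and cholesterol handling (1.98-fold). The ATP synthase subunits of that list were not called.

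The cofactor list had 1 of 23 higher, 1 lower and 21 without a call. The carnitine and beta-oxidation list had 1 of 17 higher, 0 lower and 16 without a call. The shares called were 8.7% and 5.88%, beside 10.7% of all genes tested. Shmt2, the mitochondrial serine hydroxymethyltransferase, was 1.61-fold lower in GM-CSF cells, Gclc, of glutathione synthesis, 1.44-fold higher, and Acaa2, a thiolase of beta-oxidation, 1.44-fold higher. In the list of carrier import and mitochondrial biogenesis, 1 of 31 was higher, 1 lower and 29 without a call (6.45% called). Of the 31 differences 25 were negative, with a median of -0.15, beside 7861 of 14995 and -0.01 over all genes tested. Hspa9, the matrix chaperone that pulls proteins in, was 1.47-fold lower and Ppargc1b, a coactivator of mitochondrial genes, 1.41-fold higher. Timm22, the core of the machinery that inserts carriers, was 1.13-fold apart without a call (limma adjusted p = 0.417).

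**Figure D4:**
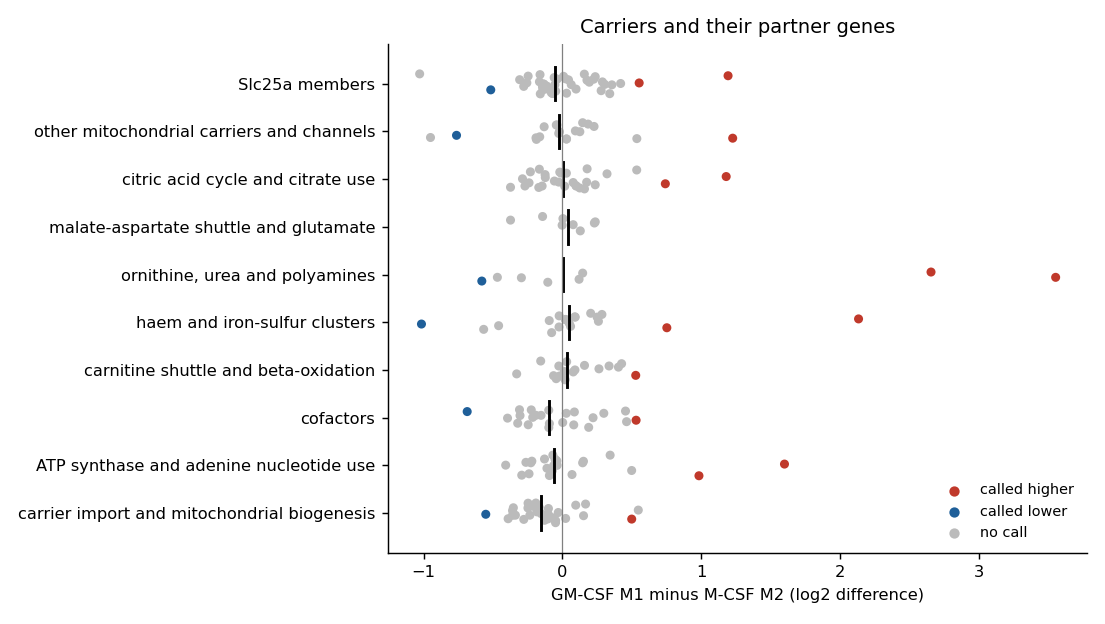
Each point is the log2 difference of a tested gene (GM-CSF M1 minus M-CSF M2, horizontal axis), in rows for the Slc25a members and 9 partner lists, coloured by its call, with a black bar at each list's median and vertical scatter only to part the points. All medians lie between -0.15 and 0.05, and single genes such as Arg1, Arg2, Alas1 and Ak4 lie far to the right.

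Markers of the sorted cells and of other cell types were read on the same arrays. Beside the counts of calls given here, 6.18% of all 14995 genes tested were called higher and 4.53% lower. All 10 macrophage markers lay above the background range on every array, and 1, Cd14, was called higher. Of 10 dendritic cell markers, 4 were higher in GM-CSF cells (Itgax, Cd24a, Clec9a and Ccr7), with the summed levels given beside Slc25a37. Flt3, Xcr1, Siglech and Dpp4 of that list had group means below the background level, with differences from -0.32 to -0.03. Batf3 (-0.15) and Zbtb46 (0.25) were not called either. The neutrophil list had 2 of 9 lower (Csf3r, -0.86, and Mpo, -0.64) and 0 higher, with a median difference of 0.01 and summed levels of 11.05 and 10.60 against 11.24 and 11.09. Its uncalled members included Ly6g at 1.02 and S100a8 at 0.89. The B cell list had 1 of 3 lower (Cd79b, -2.36). The fibroblast list had 1 of 7 higher (Dcn, 1.07) and 0 lower, with a median difference of 0.01 and sums of 9.60 and 9.38 against 9.26 and 9.33. Its uncalled members ran from -0.29 for Col1a1 to 0.57 for Pdgfrb. The T or NK cell and mast cell lists had 0 of 2 and 0 of 3 called. In these lists 0 had an unadjusted limma p under 0.05, beside 3821 of all 14995 genes tested. The part of these marker differences in the carrier values was not tested.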

How the data were processed

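Each array took 300 ng of total RNA, per the labels' protocols. The values the authors deposited are log2 RMA signals of probe sets, and the submitters' processing notes name Affymetrix Expression Console 1.1 as the software. RMA subtracts background and brings arrays to a common distribution, which compresses differences of dim genes and hides changes in total RNA. The sources used here give neither the level of summary nor the genome build.

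Probe sets were named from the platform annotation: 21789 of 35556 had a single symbol, 1621 several and 12146 none, and 21698 matched RefSeq (GRCm38.p6) by gene ID. A gene was tested if 2 or more of the 4 arrays exceeded that array's 30th percentile (14995 of 19938). Groups were compared over these genes by lmFit and eBayes of limma 3.58.1 (R 4.3.3; degrees of freedom 2 residual, 4.17 prior; two-sided) and Benjamini-Hochberg adjustment, with no block. Folds are powers of the log2 difference. Data were simulated for this comparison in 1 draw of 14995 genes, with 50 changed at each size. There the fit called 2% of the genes changed by 0.5, 72% at 1 and 98% at 2 on the log2 scale. Of its 151 calls 15 were false, more than the 0.05 threshold allows for on average. The data themselves gave 926 genes called higher and 679 lower. The adjusted cutoff depends on how many genes change, so the simulated rates do not give the power of the real comparison. The number of arrays limits the precision. Background was the 95th percentile of 1027 olfactory receptor genes, averaged over the arrays (5.90).

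Per-array values were given for called members, those at least 0.5 apart, the 5 of highest mean and members of the same substrate class compared with them. Those of Slc25a12, Slc25a13, Slc25a22, Slc25a38 and Slc25a30 fall outside this rule and were added after their values were seen. Of each partner list up to 3 called genes were named, or the largest difference; Fech, Cpox, Acly and Timm22 were added after their values were seen. Members and lists were chosen with earlier results of these data known. Other settings were filters, normalization, centring, probe set means, variances, a replicate block, a stricter threshold and leaving out each array (keeping the genes tested). Same-numbered arrays were checked for pairing and not treated as pairs. Tables and plots used Python 3.11.15, pandas 2.3.3 and matplotlib 3.10.9.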

Additional observations from a re-analysis of the deposited data

How the results depend on the processing

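Slc25a37, Slc25a35 and Slc25a36 kept their direction under every setting run. Counts moved most with the threshold and the arrays kept. At an adjusted p of 0.01 (limma) 1 member was called higher and 0 lower, with 438 and 223 genes over the whole table and 7 and 1 partner genes. Without the filter, and with probe set means, 0 members were called lower. Partner genes called lower were 8 with arrays centred on the medians of tested genes, a setting added after seeing the data, and 8 with trended and robust variances. Leaving out each array in turn gave 0 to 6 members higher and 0 to 3 lower, 168 to 1683 and 65 to 1522 over all genes, and 4 to 20 and 0 to 16 partner genes; fewer arrays and the closer M-CSF pair enter these fits by construction, and where 1 array remains in a group, its variance is taken from the opposite group. With the replicate block, 2 members were called higher and 1 lower, and 966 and 674 of all genes. The within-pair deviations of the groups correlated at r = 0.0649 across genes, and the labels do not say whether equal numbers share a culture or day, so the arrays were not treated as pairs. The block changed no call of a member.

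A change of sign occurred in 12 of the 42 members tested, none of them called, all at differences of up to 0.26 in size. After quantile normalization Slc25a44 differed by -0.0045 and Slc25a32 by -0.0032, and with centring on tested genes Slc25a44 by -0.0358, Slc25a15 by -0.0133 and Slc25a32 by -0.021. With arrays left out in turn the differences ran from -0.1229 to 0.1374 for Slc25a44, -0.106 to 0.1655 for Slc25a15, -0.0499 to 0.1365 for Slc25a18, -0.2631 to 0.0117 for Slc25a11, -0.0189 to 0.1448 for Slc25a1, -0.5363 to 0.0226 for Slc25a40, -0.0822 to 0.1263 for Slc25a32, -0.1326 to 0.0051 for Slc25a41, -0.1761 to 0.0664 for Slc25a23, -0.108 to 0.0312 for Slc25a3, -0.1778 to 0.0156 for Slc25a47 and -0.2616 to 0.1636 for Slc25a27. The cause of these moves was not tested.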
